A study of Mus musculus with 56 samples.

Results

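The comparison described here is smoke withdrawal in mouse muscle: mice that breathed cigarette smoke for 12 weeks and then went through 12 weeks of cessation with sham exposure (6 mice, labelled 12 Week Smoke 12 Week FA and called cessation FA below) were set against mice examined at the end of 12 weeks of smoke (7 mice). These groups were chosen by their labels, and they hold 14 of the 56 arrays of the series. Because the cessation mice were also sampled 12 weeks later in the study, the same interval was measured in sham mice, from 12 weeks of air (6 mice) to 24 weeks of air (6 mice), and the withdrawal change minus the sham change is called the difference of differences. The comparison with its sham interval used 26 arrays, counted as 25 mice. The titles of 2 arrays of the smoke group name the mouse as g8 and G8. These arrays were taken to be from the same mouse (G8) and averaged. Levels are also given for untreated mice examined at week 0, for mice after 2 weeks of air, 2 weeks of smoke and 24 weeks of smoke, and for a second cessation group labelled 12 Week Smoke 12 Week RA (cessation RA), each of 6 mice. All mice were female C57BL/6 with no genetic change named in the labels. Smoke and sham exposures were nose-only, for 2 hours a day on 5 days a week, with either 4% mainstream smoke or air. Whether cessation RA mice were handled this way during their 12 weeks of cessation is not known here. The tissue was gastrocnemius, the main calf muscle, and the labels state that 6 mice per treatment group were picked at random. The labels do not expand FA, or RA in the second cessation group, and give neither the age of the mice nor the hour at which tissue was taken. The limma p-values below set each difference against the spread between mice within groups, estimated over all 9 groups of the series.

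Cigarette smoke carries polycyclic aromatic hydrocarbons that bind the aryl hydrocarbon receptor (AHR), which enters the nucleus, pairs with ARNT and switches on Cyp1a1, a cytochrome P450 that oxidises such compounds. Muscle also runs a circadian clock in which ARNTL (also called BMAL1), paired with CLOCK or its relative NPAS2, drives the period genes Per1, Per2 and Per3, and the period proteins feed back to shut that drive off. Through this loop Arntl and Npas2 transcripts peak at about the opposite phase of the day from Per and Dbp transcripts, ROR and REV-ERB proteins act on Arntl, and output factors such as DBP act on the period genes.

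The promoters of 3 genes that changed in withdrawal are shown because each carries the short motif of the regulator just named. The sequences are from RefSeq in build GRCm38.p6, each runs 5′ to 3′ on the gene's own strand from 250 bases before to 50 bases after a transcript start, and capitals mark the motif, searched on both strands and numbered from the start. The Cyp1a1 window (chr9:57697363-57697662, plus strand) held the core AHR motif GCGTG at position -54, the window of a second Arntl start (chr7:113207261-113207560, plus strand) held the ROR and REV-ERB core motif AGGTCA at position 32, and the Per3 window (chr4:151044616-151044915, minus strand) held the D-box TTATGTAA, the motif bound by DBP, at positions -205 and -158.
Cyp1a1: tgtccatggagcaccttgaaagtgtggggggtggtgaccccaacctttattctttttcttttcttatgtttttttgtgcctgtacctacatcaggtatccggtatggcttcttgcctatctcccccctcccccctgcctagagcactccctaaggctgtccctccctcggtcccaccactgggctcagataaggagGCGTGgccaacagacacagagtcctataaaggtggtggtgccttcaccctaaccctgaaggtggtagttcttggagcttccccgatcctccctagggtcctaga
Arntl: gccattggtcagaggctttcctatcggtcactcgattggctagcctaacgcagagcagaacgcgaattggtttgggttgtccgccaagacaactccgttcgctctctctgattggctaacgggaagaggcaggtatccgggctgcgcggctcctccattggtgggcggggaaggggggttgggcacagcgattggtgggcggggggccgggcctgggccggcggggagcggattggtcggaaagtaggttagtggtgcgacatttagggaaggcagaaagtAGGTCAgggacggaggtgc
Per3: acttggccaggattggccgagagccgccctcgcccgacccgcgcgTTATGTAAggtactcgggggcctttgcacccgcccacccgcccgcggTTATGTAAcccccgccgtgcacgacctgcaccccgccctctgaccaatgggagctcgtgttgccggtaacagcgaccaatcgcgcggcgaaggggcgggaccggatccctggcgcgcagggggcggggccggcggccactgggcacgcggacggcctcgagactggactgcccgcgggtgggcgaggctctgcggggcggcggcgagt
Of 32851 promoter windows of this length, 32.4% held GCGTG, 16.3% held AGGTCA and 0.938% held TTATGTAA, so the first 2 motifs are common. Among the genes called in withdrawal, 37 had a window in the table, of which 22 held GCGTG, 11 held AGGTCA and 1 held TTATGTAA, beside 55.2%, 15% and 0.673% of the 9952 tested genes with a window. The E-box, the motif of ARNTL and its partners, was also searched. It was held by 3 of the 37 called genes (8.11%), beside 11.7% of the tested genes with a window. It was thus not more common among the called genes. The core of the interferon-stimulated response element was held by 2 of the 37 (5.41%), beside 3.61%. A match is a description of letters and not a site of binding.

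Values are given as log2(intensity + 16), so a difference of 1 is about a doubling for bright genes and is understated for dim ones. A gene was called at an adjusted p under 0.05 in limma (Benjamini-Hochberg over all 12351 genes tested). Of the 26 arrays, 4 carried strong transcripts of lymph node vessels and lymphocytes. Glycam1, made by lymph node vessels, read 6944 to 9758 intensity units on these 4 arrays and at most 306.72 on the other 22, and the mean of 11 lymphocyte markers was 8.63 to 10.25 against 5.02 to 6.86. The 4 arrays were set apart by Glycam1 itself. The markers passed a filter on the mean over all 56 arrays, these 4 included. Neither contrast is therefore independent support for lymph node tissue. The 4 arrays came from smoke replicate 5, one of both arrays of mouse G8, 24-week air replicate 6 and cessation replicate 4, and skeletal muscle markers were at 13.21 to 13.33 on them against 13.27 to 13.39 on the others. In bulk tissue such as this, more cells of a type and more RNA per cell cannot be told apart. Results are therefore given with and without arrays whose Glycam1 intensity was above 2000, and the part of lymph node tissue in them was not tested beyond that. The fit without such arrays left out all 12 of them in the series, which kept 44 of 55 mice. It held 5 cessation FA, 6 12-week smoke, 6 12-week air and 5 24-week air mice. The 24-week smoke and cessation RA groups, which enter the estimate of spread, kept 3 mice each.

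In withdrawal 42 of 12351 genes were called, 0.34% of those tested; 27 were higher (0.219%) and 15 were lower (0.121%) in the cessation mice than in the 12-week smoke mice. Without the Glycam1-rich arrays 239 genes were called (1.94%), 160 of them higher (1.3%) and 79 lower (0.64%), and 40 of the 42 were among them; Fundc1 and Mfsd4a were not. At an unadjusted p under 0.05 there were 801 genes with all mice and 1854 without those arrays. The 42 differences ran from 0.19 to 1.63 in size with a median of 0.54. In 21 of the 42 the values of the 6 cessation mice did not overlap those of the 7 smoke mice, which held for 83 of all genes tested (0.672%). Leaving out 1 mouse moved the count to between 16 and 47: it was 16 without cessation replicate 2, 17 without replicate 6, 23 without replicate 3, and 26 without smoke replicate 3 or without mouse G8. Arntl, Per2, Cyp1a1, Mid1ip1, Podn, Wee1, Nrip1, Aurka and Dyrk2 were called in each of these 25 fits. The other named called genes lost their call in some of them: the call held in 24 for Per3, 23 for Npas2 and Clock, 21 for Pcdh12, 19 for Ppp1r27 and Adamts4, 18 for Tmem140 and Gm21953, 17 for Slc25a30 and Fmo2, 16 for Pla2g5, Wnk3 and Gm13306, and 14 for 5430401H09Rik.

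Cyp1a1 had the largest fall among the called genes. Its level in the 7 smoke mice was 8.00, 9.18, 9.66, 8.48, 8.40 and 8.15 in the mice with 1 array, and 9.31 in mouse G8. The 6 cessation mice read 7.41, 7.35, 7.78, 7.74, 7.68 and 6.88, so the highest cessation mouse lay below the lowest smoke mouse. The groups averaged 8.74 ± 0.64 (SD, n = 7) and 7.47 ± 0.34 (SD, n = 6). Cyp1a1 was 2.41-fold lower in the cessation mice, a log2 difference of -1.27 ± 0.24 (SE; limma adjusted p = 0.00381; two-sided exact permutation p = 0.00175). In the sham mice it averaged 7.27 ± 0.13 (SD, n = 6) at 12 weeks and 7.43 ± 0.33 (SD, n = 6) at 24 weeks, a difference of 0.17 ± 0.25 (SE). The cessation mice differed from sham mice of the same study week by 0.04 ± 0.25 (SE; limma adjusted p = 0.994), which does not show equal levels. Mice after 24 weeks of smoke averaged 7.80 ± 0.77 (SD, n = 6), also below the 12-week smoke mean. The difference of differences was -1.43, with a 95% interval from -2.13 to -0.74, and did not pass adjustment over all genes (limma adjusted p = 0.219). Without the Glycam1-rich arrays the fall was -1.40 (limma adjusted p = 0.000505).

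No other measured member of the AHR battery passed the test. Of 11 listed genes 6 were measured, and these included Ahr and Arnt, the receptor and its partner. Cyp1a2, Ahrr and Aldh3a1 were on the array but fell below the filter. Cyp1a1 alone was called, with 5 of the 6 below 0 and a list median of -0.07, beside 0.00 for all genes tested. Without the Glycam1-rich arrays 3 of the 6 were below 0. Nqo1, a quinone reductase that also answers to NRF2, differed by 0.26 ± 0.16 (SE; limma adjusted p = 0.92). Cyp1b1, the related P450, spread from 6.32 to 10.26 in smoke mice and from 6.47 to 9.37 in cessation mice, and its difference of -0.32 ± 0.73 (SE) lay well inside that spread. Tiparp, an AHR target that feeds back on the receptor, differed by -0.06 ± 0.22 (SE). None of the 17 measured NRF2 targets, the antioxidant response genes, was called, and their median was 0.04.

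**Figure D1:**
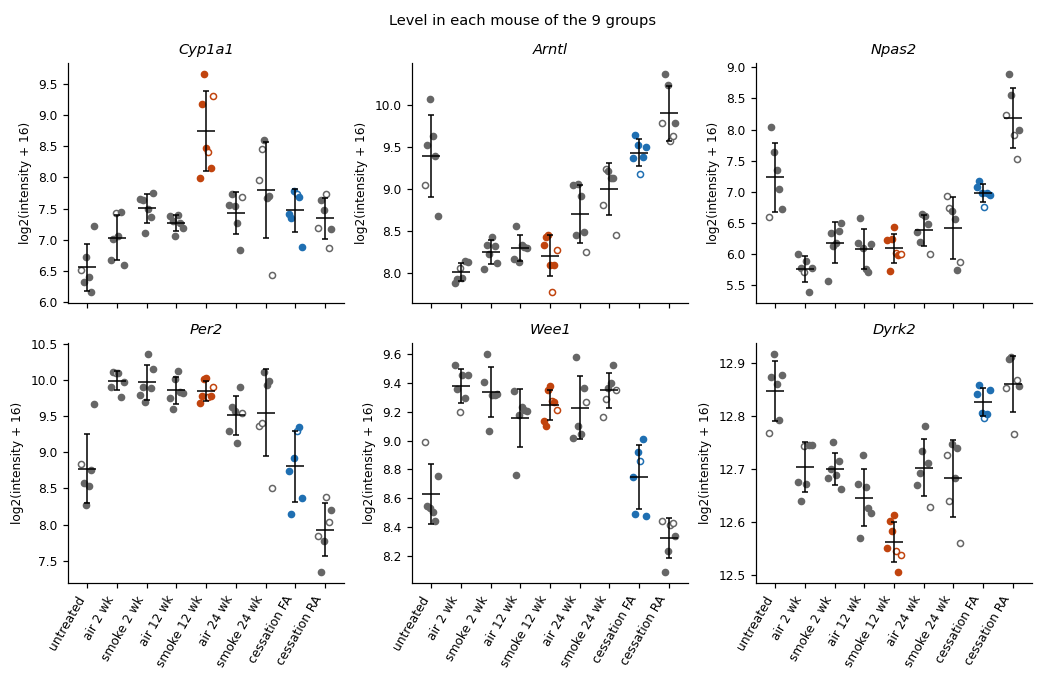
Level of 6 genes in each mouse of the 9 groups on a log2(intensity + 16) axis; points are mice, open points are mice with an array whose Glycam1 intensity was above 2000, and black bars are the group mean and SD. The mean of Cyp1a1 is highest in the 12-week smoke mice. For the other 5 genes the means of the untreated and both cessation groups lie to the same side of the means of the 6 air and smoke groups, with the cessation RA mean beyond the untreated mean in each.

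Clock genes made up 6 of the 42 called genes. All 4 measured clock activators had differences above 0 and 3 of them rose, with a list median of 0.65. Of 16 measured repressors and output genes, 12 had differences below 0 and 3 fell, with a list median of -0.28. These counts stand beside the background of 0.34% called over all genes, and the lists were drawn up with earlier results of these data known. The labels do not give the hour of tissue collection. A part of that hour in the clock differences was not tested and cannot be told apart from withdrawal.

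Arntl, the activator at the centre of the loop, read 7.78 to 8.46 in the smoke mice, with a median of 8.27. In the cessation mice it read 9.17 to 9.64, with a median of 9.44, and no mouse of one group reached the other. It rose 2.33-fold, a log2 difference of 1.22 ± 0.15 (SE; limma adjusted p = 2.23e-06; two-sided exact permutation p = 0.000583). In sham mice Arntl went from 8.13 to 8.56 at 12 weeks to 8.25 to 9.06 at 24 weeks, a difference of 0.41 ± 0.16 (SE; limma adjusted p = 0.474). The difference of differences was 0.82, with a 95% interval from 0.38 to 1.26 (limma adjusted p = 0.349).

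Npas2, the partner of ARNTL that can stand in for CLOCK, read 5.73 to 6.43 in smoke mice and 6.75 to 7.17 in cessation mice, again without overlap. It rose by 0.90 ± 0.20 (SE; limma adjusted p = 0.0218). Clock itself read 9.99 to 10.22 in smoke mice and 10.34 to 10.57 in cessation mice, a rise of 0.41 ± 0.09 (SE; limma adjusted p = 0.0185). Its sham difference pointed the other way, at -0.21 ± 0.09 (SE; limma adjusted p = 0.551). Clock therefore had the lowest p of all genes in the difference of differences, at 0.63 with a 95% interval from 0.37 to 0.89, still short of the threshold (limma adjusted p = 0.147). Rora, a receptor that activates Arntl, differed by 0.01 ± 0.10 (SE).

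Per2, a period repressor, read 9.68 to 10.03 in smoke mice with a median of 9.78. In cessation mice it read 8.14 to 9.36 with a median of 8.83, so every cessation mouse lay below every smoke mouse. It fell 2.06-fold, a log2 difference of -1.04 ± 0.19 (SE; limma adjusted p = 0.00353), beside -0.35 ± 0.20 (SE) over the sham interval. Per3, its relative, read 11.18 to 11.70 in smoke mice and 10.53 to 10.89 in cessation mice, a fall of -0.63 ± 0.13 (SE; limma adjusted p = 0.0115). Wee1, a cell cycle kinase driven by the clock, went from 9.10 to 9.38 in smoke mice to 8.48 to 9.01 in cessation mice, a fall of -0.50 ± 0.10 (SE; limma adjusted p = 0.00429), with no fall over the sham interval (0.07 ± 0.10, SE).

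Other clock outputs had values in the same direction without passing the test. Dbp, an activator at D-boxes, read 11.70 to 12.12 in smoke mice and 11.16 to 11.62 in cessation mice, which do not overlap, with a difference of -0.49 ± 0.13 (SE; limma adjusted p = 0.0917). Noct, a clock-controlled gene also called nocturnin, read 10.28 to 10.53 and 9.96 to 10.11, a difference of -0.36 ± 0.10 (SE; limma adjusted p = 0.12). Per1 differed by -0.55 ± 0.21 (SE; limma adjusted p = 0.485) with overlapping groups. Nr1d1, which encodes the REV-ERB alpha repressor of Arntl, was at 9.44 to 10.01 in smoke mice and 9.76 to 10.66 in cessation mice, a difference of 0.55 ± 0.15 (SE; limma adjusted p = 0.101) in the direction of Arntl rather than of the Per genes. Without the Glycam1-rich arrays Nr1d1 rose by 0.52 (limma adjusted p = 0.0179) and Noct fell by 0.34 on the log2 scale (limma adjusted p = 0.0283), as did Cry2, a cryptochrome repressor, by 0.43 (limma adjusted p = 3.68e-05; -0.36 and 0.234 with all mice). With the mean over a gene's probe sets in place of its brightest, these clock genes had smaller values: 0.64 for Arntl (limma adjusted p = 0.0111) and -0.74 for Per2 (limma adjusted p = 0.0111), while Npas2 at 0.47, Per3 at -0.25 and Wee1 at -0.45 missed the threshold (limma adjusted p from 0.0533 to 0.291).

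Several called genes outside the clock list had large differences. Pla2g5, a secreted phospholipase, read 6.34 to 7.65 in smoke mice and 7.48 to 8.53 in cessation mice and rose by 1.19 ± 0.28 (SE; limma adjusted p = 0.0366). Ppp1r27, a regulatory subunit of protein phosphatase 1, read 10.43 to 11.12 and 11.23 to 12.02 without overlap and rose by 0.78 ± 0.17 (SE; limma adjusted p = 0.0239). Dyrk2, a protein kinase, had the narrowest groups, at 12.51 to 12.61 and 12.80 to 12.86. Its rise of 0.26 ± 0.03 (SE; limma adjusted p = 2.23e-06) was 1.2-fold, small in size but several times the spread between mice, and it was 0.47 with the mean over probe sets.

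The remaining named rises were the RIKEN transcript 5430401H09Rik (1.63), Adamts4 (0.84), a protease that cleaves aggrecan, Aurka (0.76), a mitotic kinase, Wnk3 (0.75), a kinase that regulates chloride transporters, Tmem140 (0.71) and Pcdh12 (0.65), an endothelial protocadherin; in all 6 the groups overlapped in range. With the mean over probe sets Aurka (0.32) and Tmem140 (0.44) were not called. Among the falls, Mid1ip1, which promotes acetyl-CoA carboxylase activity in fatty acid synthesis, read 11.25 to 11.75 in smoke mice and 10.31 to 11.25 in cessation mice and fell by 0.71 on the log2 scale (limma adjusted p = 0.00196). Podn, a matrix proteoglycan, read 7.03 to 7.40 and 6.43 to 6.80 and fell by 0.59 on the log2 scale (limma adjusted p = 0.0115). Nrip1, a corepressor of nuclear receptors in metabolism, read 11.93 to 12.21 and 11.53 to 11.83 and fell by 0.41 on the log2 scale (limma adjusted p = 0.00353; 0.125 with the mean over probe sets). Fmo2, a flavin monooxygenase, and Slc25a30, a mitochondrial carrier, fell by 0.59 and 0.63 on the log2 scale with overlapping groups. Gm21953 (-0.70) and Gm13306 (-0.63) are predicted genes for which near-identical copies may share the probes, and their identity is uncertain. Clca4a, named after chloride channel accessory proteins, had the largest fall among genes called without the Glycam1-rich arrays (-1.50, limma adjusted p = 0.0257); with all mice it read 5.95 to 8.80 in smoke mice and 5.89 to 7.09 in cessation mice and was not called (-1.24, limma adjusted p = 0.176).

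Over the sham interval 4 genes were called (0.0324%), and 11 without the Glycam1-rich arrays (0.0891%); at an unadjusted p under 0.05 there were 999 and 1508. Pim1, a kinase gene, rose by 1.27 ± 0.22 (SE; limma adjusted p = 0.00375) between 12 and 24 weeks of air, and Irf2bp2 (0.57) and Zfp395 (0.48) rose with it. Col1a1, the major fibrillar collagen chain, fell by 0.60 on the log2 scale (limma adjusted p = 0.00375). In withdrawal the same 4 genes differed in the same directions, by 0.57, 0.34, 0.37 and -0.25 respectively, and none passed the test with all mice. Zfp395 passed it without the Glycam1-rich arrays (0.35, limma adjusted p = 0.021). The Pim1 levels of cessation mice, 10.75 to 11.29, nevertheless lay above all smoke mice, at 9.70 to 10.72. None of the 42 genes called in withdrawal was called over the sham interval; 37 of them had a sham difference of the same sign, beside 52.1% of all genes tested.

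No gene was called in the difference of differences, either with all mice (0%; 602 genes at an unadjusted p under 0.05, lowest limma adjusted p 0.147) or without the Glycam1-rich arrays (0%; 877 genes, lowest limma adjusted p 0.0634). With other settings 1 gene each was called without 24-week air replicate 3 (Clock, 0.68) and without both the Glycam1-rich arrays and cessation replicate 3 (Plxdc1, 0.66), and 31 were called when limma weighted arrays by their fit. With all mice weighted equally, no withdrawal change was thus shown to differ from the sham change after adjustment. Its median SE over genes was 0.17 against 0.12 for withdrawal, so it resolves less. The 10 genes with the lowest p were Clock, Fam193b, Nrip1, Plxdc1, Dyrk2, Cyp1a1, Wee1, Noxred1, Camk2n2 and Noct, with limma adjusted p from 0.147 to 0.254. Plxdc1, a membrane protein of vessels, read 8.16 to 8.48 in smoke mice and 8.57 to 8.92 in cessation mice, while sham mice went from 8.43 to 8.76 at 12 weeks to 8.00 to 8.49 at 24 weeks, giving 0.71 with a 95% interval from 0.39 to 1.03. Fam193b (-0.49), Noxred1 (-0.81) and Camk2n2 (-0.68) likewise combined opposite signs in the smoke and sham arms, whereas Dyrk2 had the same sign in both (0.26 and 0.06). Across genes the withdrawal and sham differences had r = -0.03 with all mice and r = 0.24 without the Glycam1-rich arrays, over 12351 genes that are not independent replicates and from groups that share no mouse.

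**Figure D2:**
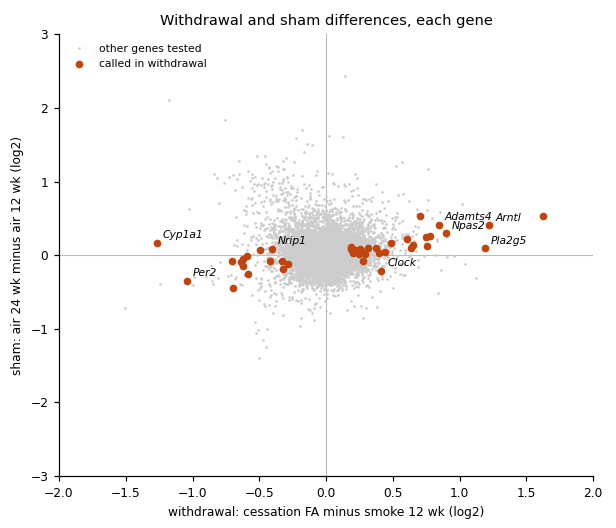
Log2 difference of each of the 12351 genes tested in withdrawal (horizontal) and over the sham interval (vertical); red points are the 42 genes called in withdrawal. The horizontal values of the red points are those that chose them, and on the vertical axis they run from -0.44 (Gm21953) to 0.53 (Tmem140).

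The 42 genes were also compared between other groups, a look chosen after their levels were seen. These mice entered the gene filter and the estimate of spread behind the withdrawal calls, and the 24-week air mice are also the later end of the sham interval. Untreated mice examined at week 0, with no nose-only exposure named in the labels, were set against mice after 2 weeks of sham air, and the second cessation group (RA, 6 mice, 12 weeks of smoke and 12 weeks of cessation) against 24 weeks of sham air. Neither pair shares a mouse with the withdrawal comparison. Untreated minus 2-week air called 64 genes (0.518%), and 16 of the 42 withdrawal genes were among them, all in the withdrawal direction; that is 38.1% of the 42 and 25% of the 64. Of the 42, 40 had a difference of the same sign, beside 61.4% of all genes tested. Cessation RA minus 24-week air called 217 genes (1.76%), of which 25 were withdrawal genes, all in the same direction; that is 59.5% of the 42 and 11.5% of the 217. There 38 of the 42 had the same sign, beside 53.2% of all genes. In total 14 of the 42 were called in both and 15 in neither. Without the Glycam1-rich arrays untreated minus 2-week air called 236 of 12351 genes. These held 62 of the 239 withdrawal genes of that fit (25.9%), all in the withdrawal direction. Cessation RA minus 24-week air, with 3 RA mice, called 490. Of the 239, 55 were called there in the withdrawal direction and 2 in the opposite one (23.8% in all). Signs matched for 214 and 188 of the 239, beside 58.5% and 51.5% of all genes.

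Of the 14 genes called in both, 4 were clock genes: Arntl, Npas2, Per2 and Wee1. Clock and Per3 were called in cessation RA minus 24-week air (0.48 and -0.83) but not in untreated minus 2-week air (0.33 and -0.35; limma adjusted p = 0.0888 and 0.39).

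Arntl averaged 9.39 ± 0.49 (SD, n = 6) in untreated mice and 9.90 ± 0.33 (SD, n = 6) in cessation RA mice, next to 9.43 ± 0.16 in cessation FA mice. After 2 weeks of air it averaged 8.01 ± 0.11 (SD, n = 6) and after 2 weeks of smoke 8.25 ± 0.14 (SD, n = 6), near the 8.21 ± 0.24 of the 12-week smoke mice. At 24 weeks it averaged 8.70 ± 0.35 (SD, n = 6) in air and 8.997 ± 0.31 (SD, n = 6) in smoke mice, between these levels. Its difference was 1.38 ± 0.16 (SE; limma adjusted p = 2.22e-07) for untreated minus 2-week air and 1.20 ± 0.16 (SE; limma adjusted p = 1.9e-06) for cessation RA minus 24-week air. Npas2 rose in these comparisons by 1.48 and 1.80, and Per2 fell by 1.22 and 1.58 and Wee1 by 0.75 and 0.90 on the log2 scale, all past the test. Outside the clock, Ppp1r27 rose by 0.88 and 0.65, Adamts4 by 0.93 and 0.99, and Mid1ip1 fell by 0.56 and 0.87 on the log2 scale. Of the 42 genes, 41 had an untreated mean nearer to the cessation FA mean than to the 12-week smoke mean, and 40 had such a cessation RA mean. The 12-week air mean was nearer to cessation FA for 2 of the 42, Clock and Cyp1a1, and nearer to the 12-week smoke mean for the other 40. Over all genes tested these shares were 61% for untreated, 53% for cessation RA and 45.9% for 12-week air. In the remaining groups the mean was nearer to cessation FA for 20 of the 42 in 24-week air (48.7% of all genes), 18 in 24-week smoke (36.2%), 9 in 2-week air (47.7%) and 10 in 2-week smoke (55%).

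Cyp1a1 was among the 15 genes called in neither of these 2 comparisons of other mice, though its sign was that of withdrawal in both. It was 1.47 ± 0.24 (SE; limma adjusted p = 0.00168) higher in 12-week smoke than in 12-week air mice, a comparison that shares the smoke mice with withdrawal. In the other mice it differed by -0.48 ± 0.25 (SE; limma adjusted p = 0.713) for untreated minus 2-week air and by -0.09 ± 0.25 (SE; limma adjusted p = 0.896) for cessation RA minus 24-week air. Arntl, Npas2, Per2 and Wee1 differed by -0.09, 0.01, -0.01 and 0.09 between 12-week smoke and 12-week air. In some other called genes these 2 means lay further apart. They were 10.07 and 10.31 for Clock, 6.84 and 7.34 for Pla2g5, and 5.40 and 5.91 for 5430401H09Rik. In order of group means Cyp1a1 ran from 6.56 in untreated mice through 7.03 in 2-week air, 7.27 in 12-week air, 7.35 in cessation RA, 7.43 in 24-week air, 7.47 in cessation FA and 7.50 in 2-week smoke to 7.80 in 24-week smoke and 8.74 in 12-week smoke. The neighbours between 12-week air and 2-week smoke lay within 1 SD of each other. The 24-week smoke mice spread from 6.43 to 8.60.

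**Figure D3:**
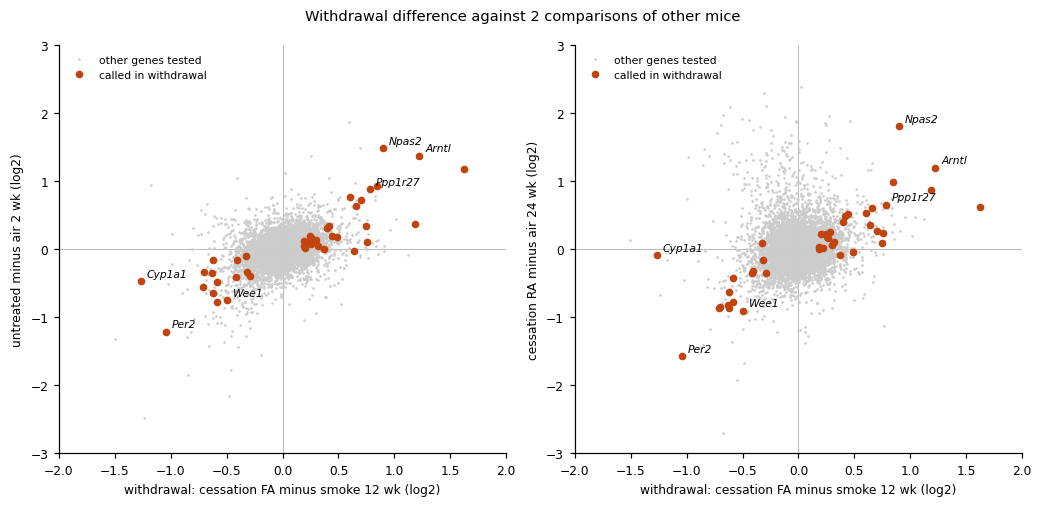
Log2 difference in withdrawal (horizontal) against untreated minus 2-week air (left, vertical) and cessation RA minus 24-week air (right, vertical) for all 12351 genes tested; red points are the 42 genes called in withdrawal. The signs match for 40 of the 42 on the left and 38 of the 42 on the right, and Cyp1a1 lies near 0 on the right.

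The interferon response list, antiviral genes induced by type I interferon, had 19 of 20 measured members above 0 in withdrawal with a median of 0.45, beside 0.00 for all genes, and none was called. Over the sham interval 17 of the 20 were above 0, with a median of 0.21. The withdrawal median rested largely on 1 mouse. The mean of the list was 9.82 in cessation replicate 3 and 7.34 to 8.18 in the other 5 cessation mice, against 7.35 to 8.50 in the smoke mice. Without that mouse the median was 0.03. Without the Glycam1-rich arrays the median was 0.70, and Rsad2 (0.99), Usp18 (0.83) and Bst2 (0.81) rose, with limma adjusted p from 0.0395 to 0.0499. With both left out the median was 0.22, and these 3 genes differed by 0.63, 0.43 and 0.46 without passing the test (limma adjusted p from 0.154 to 0.225). In Rsad2, an antiviral enzyme, the cessation mice read 8.79 to 11.02 and the smoke mice 8.39 to 9.14. Replicate 3 also had the highest levels in its group of Cd274, an interferon-induced immune checkpoint ligand (12.15, group median 9.28), and Retnla, made by alternatively activated macrophages (12.11, group median 10.47). Without the Glycam1-rich arrays Cd274 and Retnla rose by 1.20 and 1.17, and with that mouse left out as well they differed by 0.58 and 0.82 and were not called. Macrophage markers averaged 10.15 in that mouse, the highest of the cessation group, whose median was 8.66. Its Glycam1 was not above the limit.

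**Figure D4:**
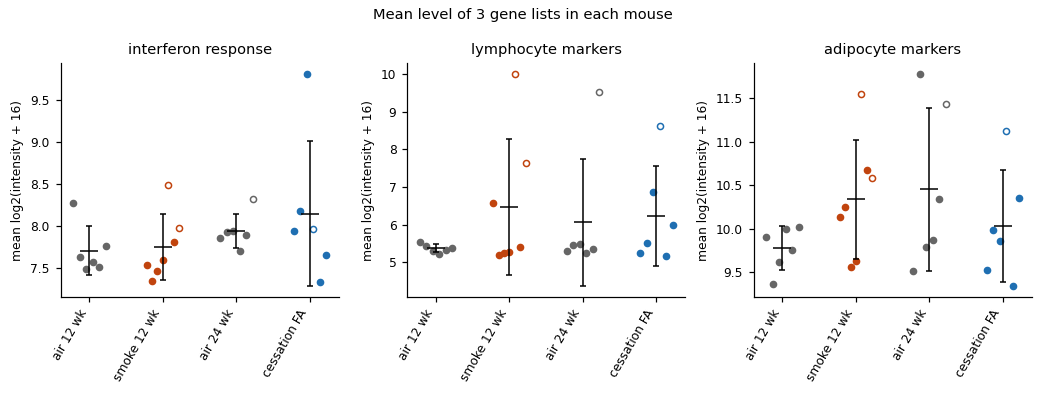
Mean log2(intensity + 16) of the measured genes of 3 lists in each mouse of the 4 groups; points are mice, open points are mice with an array whose Glycam1 intensity was above 2000, and bars are the group mean and SD. The interferon panel shows 1 cessation mouse at 9.82 above all others, the lymphocyte panel shows the open points highest in their groups, and the adipocyte panel shows wide overlap.

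Lists of markers of other cells in the muscle held no gene called in withdrawal with all mice. Of 11 lymphocyte markers, 7 were below 0 in withdrawal with a median of -0.28, which was 0.18 without the Glycam1-rich arrays. Ms4a1, which encodes the B cell antigen CD20, read 4.87 to 11.35 in smoke mice and 4.78 to 9.42 in cessation mice. Of 9 adipocyte markers, 8 were below 0 with a median of -0.30, against a sham median of 0.83 and a difference of differences of -1.12. None was called, and their mean ranged from 9.56 to 11.55 over smoke mice and from 9.34 to 11.13 over cessation mice. Lep, the gene of leptin, read 6.15 to 9.35 and 6.16 to 9.69. Of 21 collagen and matrix genes, 17 were below 0 with a median of -0.18, and the sham median was -0.22. Endothelial markers (19 genes, median 0.07) and the VEGF, angiopoietin and apelin list (14 genes, median 0.08) had no called member with all mice. Angpt2 and Angpt1, ligands of the vessel receptor TIE2, rose without the Glycam1-rich arrays by 0.57 (limma adjusted p = 0.024) and 0.34 (limma adjusted p = 0.0337). With all mice they differed by 0.38 and 0.40 (limma adjusted p = 0.59 and 0.60). With cessation replicate 3 left out beside the Glycam1-rich arrays, Angpt2 was at 0.57 (limma adjusted p = 0.045). Angpt1 was then at 0.30 and not called (limma adjusted p = 0.107).

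Lists of muscle fibre genes had medians near 0, with wider differences in single members. The medians were 0.06 for 16 slow fibre genes, 0.02 for 16 fast fibre genes, 0.00 for 40 oxidative phosphorylation genes, 0.01 for 14 genes of glycolysis and glucose uptake and 0.03 for 27 fatty acid oxidation genes, and none of these genes was called. Sln, which encodes the calcium pump inhibitor sarcolipin, differed by -0.79 ± 0.37 (SE; limma adjusted p = 0.712), and Plin5, a lipid droplet protein, by 0.69 ± 0.31 (SE; limma adjusted p = 0.664), with array weights 0.94 and called. Myh4, the fast myosin that dominates this muscle, read 13.60 to 13.70 in smoke mice and 13.55 to 13.74 in cessation mice. Myh7, the slow myosin, had medians of 12.74 and 12.80. Among 15 muscle atrophy genes none was called. Trim63 and Fbxo32 encode ubiquitin ligases that mark fibre proteins for breakdown, and they differed by 0.19 ± 0.14 (SE; limma adjusted p = 0.979) and 0.41 ± 0.21 (SE; limma adjusted p = 0.778), beside sham differences of 0.21 and 0.47. Pdk4, the brake on glucose oxidation, differed by 0.08 ± 0.14 (SE). Of 18 glucocorticoid response genes 12 were below 0 with a median of -0.06, and the sham median was 0.27. Among 20 lipogenesis and sterol synthesis genes 15 were below 0, and Mid1ip1 alone was called. Aurka was the 1 called gene of 14 cell cycle genes, whose median was -0.04.

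**Figure D5:**
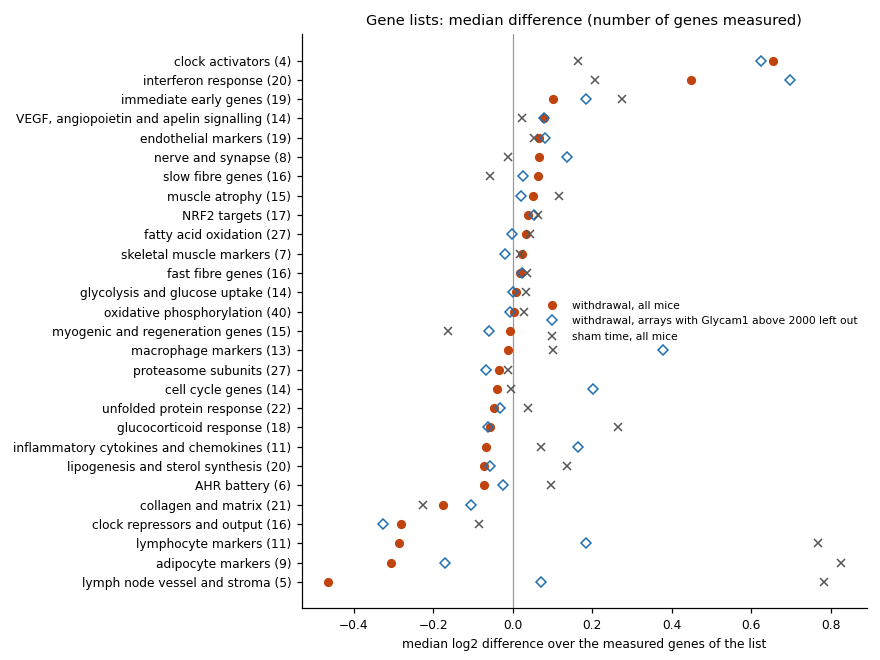
Median log2 difference over the measured genes of 28 lists, with the number measured in brackets: withdrawal with all mice (circles), withdrawal without arrays whose Glycam1 intensity was above 2000 (diamonds) and the sham interval (crosses). Clock activators and interferon genes lie highest in withdrawal, at 0.65 and 0.45, and the muscle fibre lists lie near 0.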

How the data were processed

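The deposited table held 45037 probe sets as linear intensity values that the authors derived from 1-colour arrays hybridised with biotin-labelled amplified cDNA from 50 ng of RNA, per the labels' protocols. The probe summary and normalization are not given in the sources used here. Values were floored at -15 and taken as log2(intensity + 16). Genes were named through the platform annotation, with symbols updated by gene ID: 34945 probe sets had 1 symbol, 932 several and 9160 none, and the last 2 kinds were left out. For each gene the probe set with the highest mean was kept if it reached the 40th percentile (log2 5.71), which left 12351 genes. The number of arrays limits the precision.

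Arrays of mouse G8 were averaged. limma 3.58.1 (R 4.3.3) was fitted to 55 mice in 9 groups (46 residual degrees of freedom, 48.2 after moderation), with Benjamini-Hochberg adjustment. The lists and comparisons were chosen with earlier results of these data known. Named genes were, without probe sets ending in _x_at (2 of the 42 called), up to 10 largest rises and falls in withdrawal, up to 5 each way over sham time and without Glycam1-rich arrays, the 10 lowest p in the difference of differences, up to 4 per list by p, and a fixed set; others were chosen after their values were seen. The script was tested on simulated data. Alternatives were the pseudocount, filter, normalization, probe set rule, variance model, array weights, groups fitted, the arrays of G8, the number in the sample titles, the number in the mouse names, the run of array identifiers, the threshold, Glycam1-rich arrays and each mouse left out. Single-value permutation p-values are exact and two-sided. Plots were made with Python 3.11.15 and matplotlib 3.10.9.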

Additional observations from a re-analysis of the deposited data

Results flagged for a closer look

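Outlying mice were sought in 32 named genes and 28 list means over the 4 groups, 240 sets of 6 or 7 mice, by the gap between the most extreme mouse and its neighbour as a share of the group's range (critical value 0.625 for 6 mice and 0.568 for 7). The gap exceeded it in 15 sets, 6.25%, and chance gives about 1 in 20. Among genes called in withdrawal, Adamts4 was highest in smoke replicate 6 (6.28) and lowest in 12-week air replicate 5 (5.18), and Wee1 was lowest in 12-week air replicate 2 (8.76). That air mouse was also lowest for Noxred1 (6.63) and for the mean of the myogenic and regeneration genes (9.11), and highest for the means of the clock activators (9.35) and of fatty acid oxidation (11.42). Each of these feeds the sham interval and thereby the difference of differences. Another 12-week air mouse, replicate 1, was highest for the means of NRF2 targets (10.83), cell cycle genes (8.52) and interferon response (8.28).

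In the cessation group the interferon mean of replicate 3 (9.82) stood 1.64 above the next mouse. The lymph node vessel and stroma mean was highest in 24-week air replicate 6 (10.37) and cessation replicate 4 (9.45), both with Glycam1 above 2000. Glycam1 is itself in this list of 5 measured genes, so these 2 flags partly restate that limit. The same air mouse was highest for lymphocyte markers (9.52) and cell cycle genes (8.21).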

How the results depend on the processing

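With all mice 42 genes were called in withdrawal, 4 over the sham interval and 0 in the difference of differences. The withdrawal count was 24 with no filter on dim genes, 81 with the 4 compared groups fitted alone, 75 at an adjusted p under 0.1 and 440 with array weights, a fit that gives less weight to arrays far from their group and that also called 66 genes over the sham interval and 31 in the difference of differences. Without the Glycam1-rich arrays it was 239, with 11 over the sham interval; without these and cessation replicate 3, chosen after seeing the data, the counts were 197, 11 and 1. The sham count was 2 with the 4 groups alone and with the title number as a covariate. With 1 mouse left out the counts ran from 16 to 47 in withdrawal (26 without mouse G8), from 2 to 6 over the sham interval and from 0 to 1 in the difference of differences. The cause of these shifts was not tested.

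The Cyp1a1 fall kept its direction and passed the test in every alternative run. Its difference of differences passed with array weights alone, at -1.39 (limma adjusted p = 0.0369). No named gene that was called changed sign. The median of the macrophage markers was -0.01 with all mice and 0.38 without the Glycam1-rich arrays. Of the 42 withdrawal genes, 15 to 20 were called in untreated minus 2-week air and 21 to 25 in cessation RA minus 24-week air over 5 other settings. Some numbers in the mouse names recur between groups, with no label saying that they mark a shared litter or batch. With that number as a replicate block, chosen after seeing the data, the counts were 42, 4 and 0; deviations of same-numbered mice had r of 0.20 and 0.50 for 2 pairs of smoke and cessation mice and -0.22 to 0.13 for 3 pairs of sham mice. The precision is limited by 6 or 7 mice a group. Genes were left out by their mean over all arrays, so a kept gene could be dim in 1 group. In 12-week smoke mice 5430401H09Rik averaged 5.40 and Adamts4 5.43, below the filter level of 5.71.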
